A study of Mus musculus with 15 samples.

Results

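The last interval of life sampled in this series, from 12 to 24 months of age, was examined in whole kidneys of male C57BL/6 mice (the substrain C57BL/6J in the study's methods). The comparison rested on 10 of the 15 samples, namely the 5 mice tagged 12MK17 to 12MK21 and the 5 mice tagged 24MK31 to 24MK35, chosen by the age in their labels. The other 5 samples were 3-month-old mice and served only as a reference for the earlier step. No allele or treatment is labelled for any mouse, so the groups differed by age alone as far as the labels tell, and each sample was 1 library of kidney RNA that was depleted of ribosomal RNA before strand-specific sequencing. Mouse numbers are not shared between ages, and the labels say neither the hour of the day at which kidneys were taken nor whether the ages were processed together. The study's methods put the killing of the 3-month and 24-month mice on one day and do not describe the 12-month mice. No source used here says that mice came from separate litters or cages, so p-values measure the spread between these mice. A whole-kidney library averages many cell types, so fewer cells of a type and less RNA per cell cannot be told apart in any value below.

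The kidney reabsorbs most of its filtrate in the proximal tubule, whose gene expression in the mouse differs between the sexes and depends on androgen. Reabsorption in later segments depends on ion channels and transporters that follow a daily rhythm set by the circadian clock, a loop in which BMAL1 (encoded by Arntl) and its partners CLOCK or NPAS2 switch on the Per and Cry repressors. Exonic circular RNAs are closed loops, made when an exon end is spliced back to the start of that or an earlier exon. Linear transcripts of the same gene lack this joint, and closed loops resist the enzymes that degrade linear RNA from its ends. Of the 11929 circular RNAs listed, 1119 were typed as intronic (ciRNA) instead.

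The level of a gene is given as summed FPKM (read fragments per unit of transcript length and of library depth), the sum over its transcripts. Aligned bases were estimated from the ratio of transcript coverage to FPKM. They came to 5.84 to 8.03 Gb per mouse at 12 months and 6.07 to 7.33 Gb at 24 months (exact permutation test, two-sided, p = 0.738, adjusted p = 0.786 over 5 library measures). Between 24462 and 25435 genes were above 0 per mouse. The summed FPKM over all genes was 218292 to 232878 at 12 months and 209502 to 224033 at 24 months (exact permutation p = 0.0317, adjusted p = 0.119). Markers of the labelled tissue were present throughout: the 14 proximal tubule markers summed to 10130 to 12650 FPKM at 12 months and 7644 to 10330 FPKM at 24 months, a ratio of means of 0.814 (exact permutation p = 0.0238, adjusted p = 0.405 over 17 marker lists). Kap, the kidney androgen-regulated protein, made up 68.8% of that sum at 12 months and 62.4% at 24 months. Red blood cell markers summed to 600.3 to 1068 and 260.2 to 1033 FPKM, and B and plasma cell markers to 91.1 to 532.9 and 137.2 to 320.3 FPKM. None of the 17 lists passed adjustment, and fat cell markers were listed at 0 in 1 of the 12-month mice.

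Very little of the linear transcriptome passed the test between 12 and 24 months. With limma on log2(summed FPKM + 1) and Benjamini-Hochberg adjustment, 0 of 32282 genes rose (0% of genes tested) and 1 was called lower (0.0031%), although 2075 genes had an unadjusted p under 0.05, 990 of them higher (3.07%) and 1085 lower (3.36%). When every mouse was scaled to the same FPKM total, the same limit left 1551 genes higher and 691 lower, so the balance of directions depended on the scaling. The median log2 fold change over all genes tested was -0.0013, and the second smallest adjusted p was 0.326. Leaving out 1 mouse gave 0 or 1 gene that rose, or 4 without mouse 31, and 1 to 3 genes that fell (2 without mouse 19, 20, 32 or 33, and 3 without mouse 21 or 31). The same fit gave 79 genes (0.25% of 31637) from 3 to 12 months and 386 genes (1.22% of 31755) from 3 to 24 months. These comparisons share mice, so their counts are set side by side and are not independent. A direct test of whether the late step differed from the early one, over all 15 mice, called 0 of 33058 genes (smallest adjusted p = 0.0807, 2933 genes at an unadjusted p under 0.05).

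**Figure D1:**
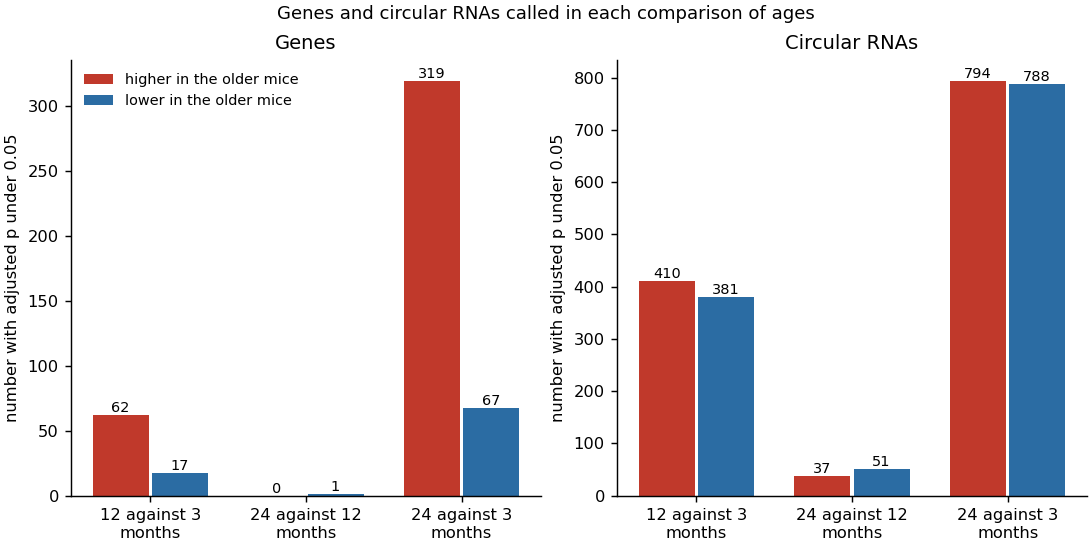
Number of genes (left, limma on summed FPKM) and circular RNAs (right, edgeR on circular counts) with adjusted p under 0.05, higher (red) or lower (blue) in the older mice of each comparison, 5 mice per age. Between 12 and 24 months the bars stand at 0 and 1 for genes and at 37 and 51 for circular RNAs.

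Sdhaf1, which encodes an assembly factor of succinate dehydrogenase (respiratory complex II), was the gene called lower. In the 12-month mice numbered 17 to 21 it was 1.53, 1.19, 1.4, 2.1 and 1.64 FPKM, and in all 5 of the 24-month mice it was listed at 0. The 3-month mice were at 0.8, 1.23, 0, 0.626 and 1.19 FPKM. The ages did not overlap, and its adjusted p was 0.00225; no fold is given, since one age was listed at 0. A listed 0 in FPKM values without read counts can be a failed estimate, and Hnrnpa0, a gene that most cells use, was itself listed at 0 in 4 of the 12-month mice (below). Sdhaf1 was represented by single-exon transcripts at chr7:30321406-30323895 (GRCm38, minus strand), and the single-exon gene E130208F15Rik lies within it on the opposite strand. That neighbour was at 2.84 to 4.33 FPKM at 12 months and 3.18 to 3.95 FPKM at 24 months. The call was lost when the 3-month mice joined the fit (adjusted p = 0.111), and Sdhaf1 was not tested when genes with a mean under 1 FPKM or single-exon transcripts were left out.

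At an unadjusted p under 0.05 with a change above 2-fold, 21 genes were higher (0.0651%) and 34 lower (0.105%) at 24 months. Of these 55 genes, 23 were listed at 0 in at least 1 of the 10 mice. In 45 of them (81.8%) the highest mouse of an age was at least 5 times the lowest, against 10.6% of the 13600 genes with a mean of at least 1 FPKM. Single-exon transcripts alone made up 20 of the 55 (36.4%), against 6.73% of those 13600 genes. The 55 passed no filter on level and were chosen for a large change. Nothing is therefore read from the gaps to the 13600 genes. In 10 of the 55 the ages did not overlap, a separation that 1.07% of all genes tested showed. The 55 were chosen by the difference between these same mice, so nothing is read from that count. With transcripts of 2 or more exons only, 9 genes were higher, and without mouse 20, 21, 31 or 32 it was 35, 33, 36 and 32.

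Several of these genes were either near 0 or near a common level in single mice. Hnrnpa0, a single-exon gene for an RNA-binding protein, was 0, 0, 0, 0 and 9.06 FPKM at 12 months and 8.09, 7.42, 7.62, 8.6 and 8.6 FPKM at 24 months. Mouse 21 stood with the older mice, and without it the difference had an adjusted p of 1.44e-06. Uqcr10, a small subunit of respiratory complex III, was 69.3, 64.6, 60.5, 64 and 70.3 FPKM at 12 months and 12, 6.43, 55.5, 4.46 and 5.08 FPKM at 24 months. Of the older mice only mouse 33 came near the younger ones, and without it the log2 fold change was -3.15 (adjusted p = 0.0115), while with annotated transcripts alone and all mice it was -1.49 (adjusted p = 0.835). Ndufa8, an accessory subunit of complex I, was 43.7 to 65.6 FPKM at 12 months and 59.6, 22.9, 20.9, 19.8 and 18.5 FPKM at 24 months, and leaving out mouse 31, the highest of the older mice, gave a log2 fold change of -1.36 (adjusted p = 0.0191). The mouse left out is in each case the one whose value went against the difference, so these p-values show how far 1 mouse decides a result and support no call. Galnt4, Zxdb and Nipa1 were lower in the same patchy way, with log2 fold changes of -1.52 ± 0.37 (SE), -1.07 ± 0.26 (SE) and -1.16 ± 0.23 (SE). Each of these 3 had an adjusted p above 0.58 (0.589, 0.589 and 0.581).

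The higher genes at these limits also included Clrn3, a clarin family membrane protein, at 1.3, 1.35, 1.67, 1.26 and 1.02 FPKM at 12 months and 9.54, 2.75, 6.38, 2.94 and 3.19 FPKM at 24 months (log2 fold change 1.24 ± 0.28 (SE), unadjusted p = 0.00153, adjusted p = 0.586). Ugt1a10, a UDP-glucuronosyltransferase, was 4.47 to 9.38 FPKM and then 10.6 to 41 FPKM, but its last exons are shared with the other Ugt1a genes, so the assignment of its reads is uncertain. Gm44986, Gm42547, Gm38365, Gm45819 and Gm20489 were predicted genes with mice listed at 0. Single mice decided 4 of these in the same way, with adjusted p of 0.000418 for Gm44986 without mouse 31, 0.000494 for Gm42547 without mouse 35, 0.00156 for Gm38365 without mouse 19 and 0.0118 for Gm20489 without mouse 34. With annotated transcripts alone (class code =) the log2 fold change of Gm20489 was 0.017. Zfp526 was 0.0669 to 1.42 FPKM and then 1.13 to 4.23 FPKM. The lower genes included Hspa2, listed at 0 in all 24-month mice and at 1.78, 1.25, 2.44, 1.16 and 0 FPKM at 12 months (adjusted p = 0.602, and 0.0287 without mouse 21, the 12-month mouse at 0), and its log2 fold change was -0.081 with transcripts of 2 or more exons only. Pole3 (log2 fold change -1.85), Lrrc58 (-1.64) and Gm20712 (-1.14) were among the lower genes too, with adjusted p of 0.668, 0.67 and 0.673.

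The largest share of members past the unadjusted limit, among the gene lists described here, lay in the 15 androgen-responsive and sex-biased genes. At an unadjusted p under 0.05, 3 members were higher (20% of the list, against 3.07% of all genes) and 6 were lower (40%, against 3.36%), with 0 past adjustment in either direction. The 3 higher members, Prlr, Slc7a12 and Cyp4a14, are known as female-biased in mouse kidney, and the 6 lower members, Odc1, Gusb, Slco1a1, Cyp4b1, Cyp2j13 and Acsm3, as androgen-induced or male-biased. This split by sex bias covers only members chosen by a small p, so nothing is read from it. The rest of the list, part of it given below, was not sorted by sex bias. Over the whole list 5 log2 fold changes were positive and 10 negative. The list was chosen with earlier results of these data in view, so its counts are a description. The median log2 fold change of the list was -0.35.

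Prlr encodes the prolactin receptor. It was 7.45, 3.88, 6.29, 7.13 and 6.27 FPKM in the 12-month mice and 11.5, 16.2, 19.5, 13.5 and 13.7 FPKM in the 24-month mice, with the lowest older mouse above the highest younger one. The log2 fold change was 1.14 ± 0.17 (SE) (unadjusted p = 7.98e-05, adjusted p = 0.515), and it lay between 0.80 and 1.26 under all 18 alternatives. From 3 to 12 months the log2 fold change was 0.027 (adjusted p = 0.979), and the difference between the steps had an adjusted p of 0.607. The 3-month mice spread from 2.05 to 13.9 FPKM.

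Slc7a12, an amino acid transporter, was 29.3, 10.7, 27, 15.5 and 19.1 FPKM at 12 months and 38.4, 37.3, 47, 41.2 and 34.9 FPKM at 24 months. Its ages did not overlap either (log2 fold change 1.01 ± 0.24 (SE), unadjusted p = 0.00209, adjusted p = 0.589). Cyp4a14, a fatty acid hydroxylase, was 54.5, 18.1, 44.2, 25.1 and 14.9 FPKM and then 84.7, 44.4, 73.8, 80.1 and 91.9 FPKM, with the lowest older mouse below the highest younger one (log2 fold change 1.35 ± 0.36 (SE), unadjusted p = 0.00403, adjusted p = 0.665). The 3-month mice spread over 16.3 to 352.9 FPKM for Cyp4a14 and 6.01 to 51.9 FPKM for Slc7a12, wider than either older age.

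Of the lower members, Odc1 (ornithine decarboxylase, the first enzyme of polyamine synthesis) was 173.6, 204.6, 131.5, 157.8 and 144.7 FPKM at 12 months and 109.4, 101.6, 109.3, 130.4 and 111.7 FPKM at 24 months, without overlap (log2 fold change -0.51 ± 0.13 (SE), unadjusted p = 0.0023, adjusted p = 0.589). Acsm3, an acyl-CoA synthetase, was 95.8, 92.6, 112.1, 108.2 and 106.1 FPKM and then 74.6, 65.8, 65.9, 93.3 and 80.1 FPKM, where 1 older mouse exceeded the lowest younger one (log2 fold change -0.44 ± 0.11 (SE), unadjusted p = 0.00237, adjusted p = 0.589), or -0.28 with annotated transcripts alone. Slco1a1, an organic anion transporter, was 16.2, 33.9, 27.9, 34.6 and 29 FPKM and then 10.5, 13.8, 9.08, 17.9 and 18.8 FPKM, with 2 older mice above the lowest younger one (log2 fold change -0.97 ± 0.25 (SE), unadjusted p = 0.00332, adjusted p = 0.627). Gusb (beta-glucuronidase), Cyp4b1 and Cyp2j13 had log2 fold changes of -0.33, -0.38 and -0.24, with unadjusted p of 0.00634, 0.0356 and 0.0304.

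Kap itself was 7129, 8488, 8428, 6399 and 9058 FPKM at 12 months and 6939, 4721, 4258, 6334 and 6941 FPKM at 24 months, with a log2 fold change of -0.45 ± 0.62 (SE) and an unadjusted p of 0.482 in the fit across genes. The fit takes part of each standard error from a trend over genes of similar level, and the spread of Kap alone gave a standard error of 0.17 and an exact permutation p of 0.0317 (two-sided, chosen after its values were seen). Hsd11b1 had a log2 fold change of 0.03, and Cyp4a12a, Cyp7b1 and Slc22a7 had -0.35, -0.40 and -0.44, all with unadjusted p above 0.11. The summed proximal tubule markers, in which Kap is the main part, were also at a lower level at 24 months (above), with 6 of the 14 log2 fold changes positive and 8 negative, and their part in these differences was not tested. With the 3-month mice in the fit, 2 of the lower members stayed under an unadjusted p of 0.05 instead of 6, while the count of higher members was 3 under every alternative.

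**Figure D2:**
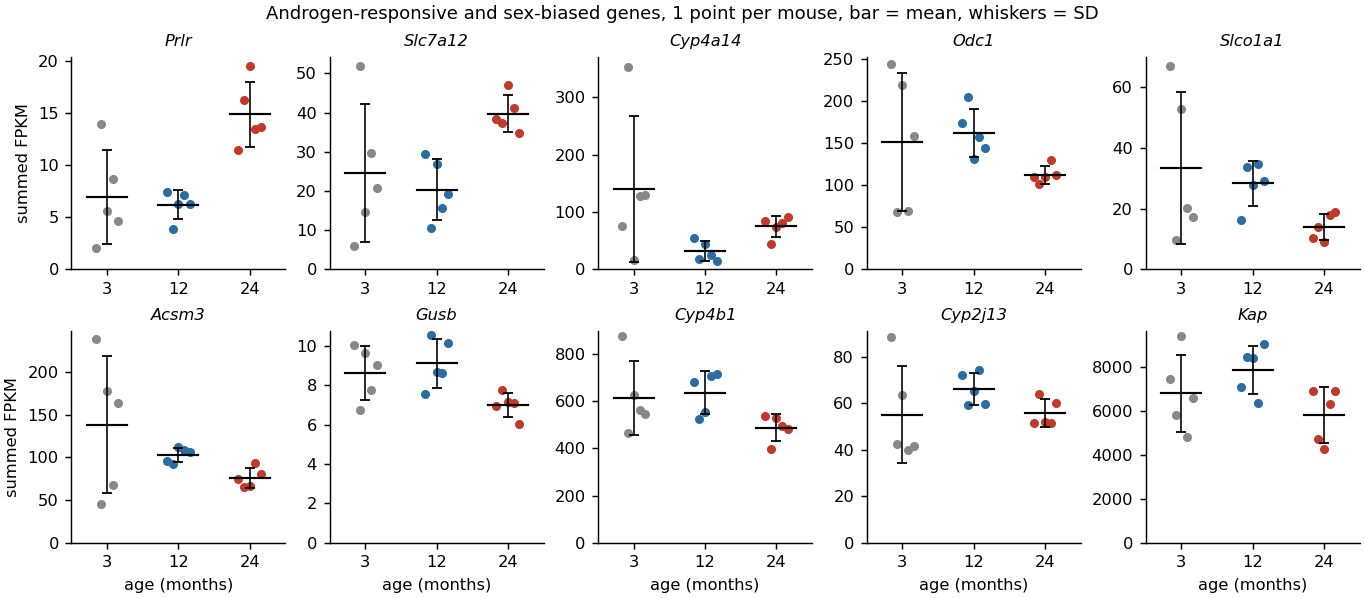
Summed FPKM of 10 androgen-responsive and sex-biased genes in each mouse (points) at 3, 12 and 24 months, with the mean (bar) and SD (whiskers) of 5 mice per age. Prlr and Slc7a12 at 24 months lie wholly above the 12-month mice and Odc1 wholly below, and the SD of all 10 genes is largest at 3 months.

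Genes of the circadian clock differed in both directions. Of 21 members, 4 were higher (19%, against 3.07% of all genes) and 3 were lower (14.3%, against 3.36%) at an unadjusted p under 0.05, with 0 past adjustment. The lower ones were Arntl and Npas2, which encode activators of the loop, and Nr1d1, which encodes the repressor REV-ERB alpha. The higher ones included the repressor genes Per2, Per3 and Cry1. The median log2 fold change of the list was 0.15.

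Arntl was 3.46, 2.66, 3.23, 3.92 and 6.16 FPKM at 12 months and 1.68, 0.51, 0.721, 0.624 and 3.72 FPKM at 24 months. Of the older mice only mouse 35 reached into the younger range (log2 fold change -1.10 ± 0.33 (SE), unadjusted p = 0.00732, adjusted p = 0.676). It was already lower at 12 than at 3 months (log2 fold change -1.40, adjusted p = 0.0448), and from 3 to 24 months it fell by 2.51 on the log2 scale (adjusted p = 0.0146). Npas2 was 2.18, 1.02, 1.35, 2.33 and 2.34 FPKM and then 0.433, 0.322, 0.506, 0.272 and 1.08 FPKM, with mouse 35 the highest of the older mice (log2 fold change -0.89 ± 0.19 (SE), unadjusted p = 0.00103, adjusted p = 0.586). Nr1d1 was 24.6, 27.9, 26.7, 38.5 and 32.1 FPKM and then 11.7, 27.6, 17.3, 9.21 and 17.5 FPKM (log2 fold change -0.88 ± 0.26 (SE), unadjusted p = 0.00671, adjusted p = 0.675).

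Cry1, a repressor of the loop, was 0.677, 0.654, 0.693, 0.696 and 0.378 FPKM at 12 months and 1.68, 1.32, 1.14, 2.49 and 0.893 FPKM at 24 months (log2 fold change 0.60 ± 0.16 (SE), unadjusted p = 0.00478, adjusted p = 0.668). Its ages did not overlap, which held for 1 of the 21 clock genes and for 1.07% of all genes tested. Per2 was 4.97, 5.91, 5.39, 4.47 and 2.43 FPKM and then 7.3, 11.5, 10.4, 12.2 and 5.06 FPKM (log2 fold change 0.85 ± 0.26 (SE), unadjusted p = 0.00813, adjusted p = 0.689). Per3 had a log2 fold change of 0.60 ± 0.20 (SE) (unadjusted p = 0.0134, adjusted p = 0.714). Mouse 21 had the lowest Per1, Per2 and Cry1 and the highest Arntl of the 12-month mice, and mouse 35 had the lowest Per2, Per3 and Cry1 and the highest Arntl and Npas2 of the 24-month mice. Because the hour at which kidneys were taken is not given in the sources used here, its part in these differences was not tested. With annotated transcripts alone (class code =), 1 clock gene was higher instead of 4.

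Among genes driven by the loop, Dbp, a transcription factor, was 4.89 to 12.7 FPKM and 6.44 to 23.7 FPKM (log2 fold change 0.15, unadjusted p = 0.68). Tef, Hlf and Nr1d2 had log2 fold changes of 0.17, 0.23 and 0.058, and Nfil3 had -0.31 (unadjusted p = 0.111) after a lower level at 12 than at 3 months (log2 fold change -2.10, adjusted p = 0.0135).

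The promoter of Cry1 is shown because it holds the E-box CACGTG, a palindrome that BMAL1 and its partners bind, and because the Cry1 transcript and a Cry1 circular RNA were both higher. These are the 250 bases before the RefSeq start of Cry1 (GRCm38.p6, chr10:85185055-85185304, minus strand), with the E-box in capitals 60 bases before the start:
Cry1 promoter: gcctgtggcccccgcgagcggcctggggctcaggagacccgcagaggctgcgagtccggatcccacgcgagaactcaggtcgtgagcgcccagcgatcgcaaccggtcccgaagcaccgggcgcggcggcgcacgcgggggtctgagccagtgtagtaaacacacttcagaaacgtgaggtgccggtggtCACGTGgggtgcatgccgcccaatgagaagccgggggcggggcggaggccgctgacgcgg
In windows from 250 bases before to 50 bases after the start, CACGTG was present in 7.15% of 32851 RefSeq windows on either strand. It was present in at least 1 window of 5 of the 17 clock genes that had a window (Bhlhe41, Ciart, Cry1, Per1 and Tef). The motif AGGTCA, which REV-ERB alpha and other nuclear receptors bind, was read on both strands. It was present in 16.3% of all windows and in at least 1 window of 5 of the same 17 genes (Arntl, Clock, Nfil3, Nr1d2 and Per1). The shares count windows and the other values count genes, which can have several windows, so neither is set against the other. A match describes these letters alone.

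**Figure D3:**
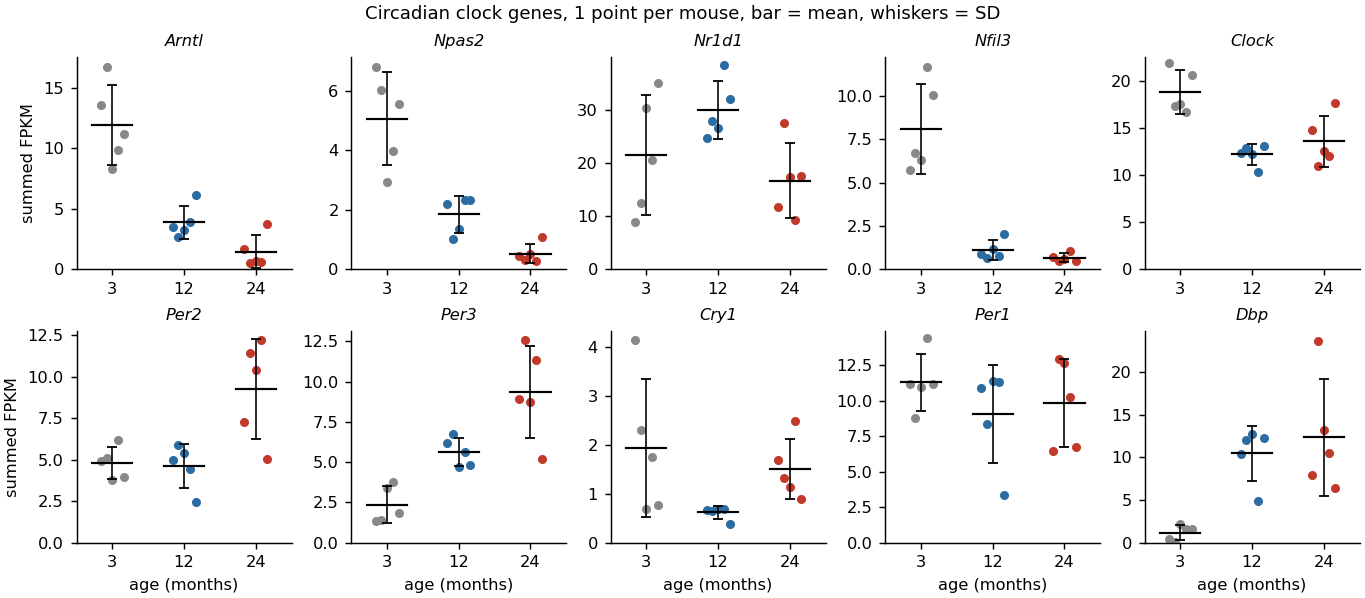
Summed FPKM of 10 circadian clock genes in each mouse (points) at 3, 12 and 24 months, with the mean (bar) and SD (whiskers) of 5 mice per age. The means of Arntl and Npas2 are lower at each later age, Cry1 at 24 months lies wholly above the 12-month mice, and the other genes overlap between 12 and 24 months.

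Among injury, matrix and collagen genes, the members past the unadjusted limit were mostly lower in the oldest mice, with 0 past adjustment. Of 20 senescence and tubular injury genes, 6 were lower (30%, against 3.36% of all genes) and 0 higher at an unadjusted p under 0.05, with a median log2 fold change of -0.26. Havcr1 (KIM-1, a protein that injured tubule cells display) was 5.29, 8.43, 1.37, 2.46 and 2.49 FPKM at 12 months and 0.904, 0.917, 0.985, 0.728 and 1.36 FPKM at 24 months. Mice 17 and 18 were the highest, and the ages were separated only narrowly (log2 fold change -1.17 ± 0.34 (SE), unadjusted p = 0.00645, adjusted p = 0.673). Glb1 (lysosomal beta-galactosidase, the enzyme behind a common senescence stain), Sox9 and Clu had log2 fold changes of -0.29 ± 0.10 (SE), -0.29 ± 0.10 (SE) and -0.38 ± 0.15 (SE), with unadjusted p of 0.0165, 0.0183 and 0.0316. Gdf15 and Vcam1 completed the 6 with -0.54 and -0.54. Cdkn1a, which encodes the cell cycle inhibitor p21, was 1.96 to 9.1 FPKM and then 3.58 to 6.89 FPKM (unadjusted p = 0.793), Cdkn2a was 0 to 0.0515 and 0 to 0.0923 FPKM, and Lcn2 was 3.1 to 25.9 FPKM and then 6.24 to 12.7 FPKM. The list had 3 lower members without mouse 18 and without mouse 34. It also had 3 with all 15 mice in the fit and with every mouse at the same FPKM total.

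Of 44 collagen genes, 11 were lower (25%, against 3.36% of all genes) and 2 higher (4.55%, against 3.07%). The median log2 fold change of the list was -0.053. Col3a1, a fibrillar collagen of the interstitium, was 11.2, 16.4, 9.11, 8.01 and 9.18 FPKM at 12 months and 8.35, 4.76, 7.61, 5.84 and 5.88 FPKM at 24 months, with 1 older mouse above the lowest younger one (log2 fold change -0.63 ± 0.20 (SE), unadjusted p = 0.00919, adjusted p = 0.689). Col6a2 and Col19a1 were lower by log2 fold changes of -0.40 ± 0.11 (SE) and -0.30 ± 0.092 (SE), and Col1a1 and Col1a2, the chains of type I collagen, by -0.53 and -0.40 (unadjusted p = 0.0459 and 0.015). Col27a1 was the higher exception among the leading genes, at 7.3, 7.96, 12, 11.8 and 8.13 FPKM and then 16.7, 19.4, 15.4, 17.2 and 9.34 FPKM (log2 fold change 0.66 ± 0.20 (SE), unadjusted p = 0.00918, adjusted p = 0.689). Without mouse 21, mouse 34 or mouse 35, or at the same FPKM total, 7 collagen genes were lower, and with all 15 mice in the fit 6 were. With annotated transcripts alone 0 were higher. Of 21 further matrix and fibrosis genes, 3 were lower (14.3%) and 0 higher, among them the matrix metalloproteinases Mmp2 (log2 fold change -0.51 ± 0.14 (SE), unadjusted p = 0.00492, adjusted p = 0.67) and Mmp14 (-0.44) and the collagen cross-linking enzyme Lox (-0.47). Fn1 (fibronectin) had -0.34 (unadjusted p = 0.059). The 14.3% of this matrix list stands against 3.36% of all genes. Without mouse 20 the list had 1 lower member.

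Housekeeping lists had mostly negative log2 fold changes, in small steps. Of 79 nuclear genes of the respiratory chain, 13 were lower (16.5%, against 3.36% of all genes) and 1 higher (1.27%, against 3.07%). Of the 79 log2 fold changes 64 were negative, with a median of -0.13. After Uqcr10 and Ndufa8, described above, the leading members were Ndufv3 (-0.50 ± 0.14 (SE)) and Uqcrq (-0.72 ± 0.21 (SE)). Of 76 cytosolic ribosomal protein genes, 5 were lower (6.58%, against 3.36% of all genes) and 0 higher. Of the 76 log2 fold changes 66 were negative. The median of the 76 was -0.18, against -0.0013 over all genes and -0.024 among the 13600 genes with a mean of at least 1 FPKM. In a fit of those 13600 genes alone, 655 were lower at an unadjusted p under 0.05. Neither list was compared with genes of similar level. The share of negative values over all genes is not given here, and the summed FPKM was at a lower level at 24 months (above). These sign counts are a description, and the part of scaling in them was not tested. Rps15 was 109, 91.3, 91.6, 97.1 and 103 FPKM at 12 months and 87.4, 90, 76.9, 64.6 and 64.8 FPKM at 24 months, without overlap (log2 fold change -0.36 ± 0.11 (SE), unadjusted p = 0.00914, adjusted p = 0.689), and Rps29, Rpl18 and Rpl32 had -0.56, -0.35 and -0.33. The ribosomal count was sensitive to single mice, at 13, 9, 19 and 9 lower genes without mouse 18, 20, 31 or 32. The respiratory count was 7 when every mouse was scaled to the same FPKM total and 8 without mouse 33, mouse 34 or mouse 35.

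Of 65 replication-dependent histone genes, 8 were lower (12.3%) and 0 higher, led by Hist2h3b (-0.57 ± 0.18 (SE)), Hist1h3a (-0.57), Hist1h2ao (-0.37) and Hist1h4a (-0.47), the core proteins of nucleosomes. These genes are near-identical copies whose reads can be split between them, so single members are uncertain, and the count was between 3 and 10 when 1 mouse was left out (3 without mouse 17 or 33, 4 without mouse 19 or 35, and 5 without mouse 18 or 32). It was 4 among genes with a mean of at least 1 FPKM and 1 with transcripts of 2 or more exons only. Of 20 genes of the unfolded protein response, 3 were lower (15%) and 0 higher, namely the chaperone Hspa5 (-0.45 ± 0.16 (SE), unadjusted p = 0.019, adjusted p = 0.726), Sdf2l1 (-0.66) and Creld2 (-0.40). Of 16 heat shock and cold-inducible genes, 3 were higher (18.8%), Rbm3 (0.36), Cirbp (0.37) and Chordc1 (0.25). In the same list 1 was lower (6.25%), the abundant chaperone Hspa8 (-0.45). Over all genes 3.07% were higher and 3.36% lower, the shares that the counts of the histone, unfolded protein and heat shock lists stand against.

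Metabolic lists were mixed. Over all genes 3.07% were higher and 3.36% lower, and the counts below are too small to set apart from those shares. Of 20 fatty acid oxidation genes, 2 were higher (10%), among them Cyp4a14, described above, and 0 lower. Cyp4a10 and Acads had log2 fold changes of 0.40 and -0.25. Of 21 sterol and fatty acid synthesis genes, 2 were higher, the desaturase Scd1 (0.70 ± 0.19 (SE), unadjusted p = 0.00468, adjusted p = 0.668) and the elongase Elovl6 (0.32), and 2 were lower, Idi1 (-0.34) and Srebf2 (-0.27), 9.52% in each direction. Of 23 glutathione and antioxidant genes, 2 were higher and 2 lower (8.7% each): Cat (catalase) was 324.9, 167.6, 410.2, 168.2 and 188.3 FPKM and then 414.8, 318.7, 552.5, 424.2 and 479.9 FPKM (log2 fold change 0.88 ± 0.28 (SE), unadjusted p = 0.0119, adjusted p = 0.714) and Gsta4 had 0.31, while the superoxide dismutase genes Sod1 and Sod2 had -0.37 and -0.36. The direction for Cat was lost with annotated transcripts alone, where its log2 fold change was -0.0074.

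Along the nephron, 3 of 8 thick limb markers were higher (37.5%) and 0 lower. Over all genes 3.07% were higher and 3.36% lower, the shares that each count in this paragraph stands against. Slc12a1, the sodium, potassium and chloride cotransporter that furosemide blocks, was 172.9, 163.8, 187.5, 195.8 and 184 FPKM at 12 months and 197.3, 205.3, 208.8, 213.9 and 218.2 FPKM at 24 months, without overlap (log2 fold change 0.21 ± 0.078 (SE), unadjusted p = 0.0243, adjusted p = 0.747), which was 0.088 with annotated transcripts alone. Kcnj1 (0.43) and Ptger3 (0.38) were the other two, and Cldn16 had 0.20 (unadjusted p = 0.199). The summed level of the 8 markers was 1228 to 1496 FPKM and then 1329 to 1465 FPKM (exact permutation p = 0.183, adjusted p = 0.517). Of 8 distal convoluted and connecting tubule markers, 2 were lower (25%) and 0 higher. Trpm6, the magnesium channel of the distal convoluted tubule, was 6.44, 6.98, 6.75, 6.36 and 6.26 FPKM and then 5.19, 5.27, 4.86, 5.19 and 5.1 FPKM, without overlap (log2 fold change -0.30 ± 0.053 (SE), unadjusted p = 0.000221, adjusted p = 0.581), and Slc8a1, a sodium and calcium exchanger, had -0.54 ± 0.16 (SE). The thiazide target Slc12a3 had -0.19 (unadjusted p = 0.279) and the calcium channel gene Trpv5 -0.11 (unadjusted p = 0.365). Of 14 phosphate, calcium and Klotho genes, 2 were lower (14.3%), Kl (Klotho, the coreceptor for FGF23; -0.21 ± 0.091 (SE), unadjusted p = 0.0407, adjusted p = 0.759) and Slc34a3 (-0.19), while Vdr and Slc9a3r1 had -0.19 and -0.33.

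In the immune lists, 0 of 16 MHC genes, 0 of 22 interferon-stimulated genes and 0 of 15 complement genes passed the unadjusted limit in either direction, and 2 of 20 chemokine and cytokine genes, Cxcl1 and Il34, were lower (10%, against 3.36% of all genes). Of the complement genes 13 of 15 log2 fold changes were negative, with a median of -0.20. Of the chemokine and cytokine genes 16 of 20 were negative, with a median of -0.094. The share of negative values over all genes is not given here, so nothing is read from these sign counts. Of the marker lists for B and plasma cells, T and NK cells, macrophages and dendritic cells, and neutrophils, 1 of 16, 0 of 16, 1 of 14 and 1 of 8 members were lower (against 3.36% of all genes) and 0 were higher (against 3.07%), counts too small to set apart from those shares. The large families were near the background, with 14 of 373 solute carrier genes higher (3.75%) and 12 lower (3.22%), and 2 of 85 cytochrome P450 genes higher (2.35%) and 3 lower (3.53%). Proximal tubule markers had 1 of 14 members lower (Slc5a2), renin-angiotensin genes 1 of 10 lower (Ace), and immediate early genes 1 of 17 higher (Jun). The lncRNA Gm43360, which the study followed, was 1.18, 2.9, 3.82, 3.7 and 2.46 FPKM at 12 months and 2.32, 4.04, 3.01, 0 and 4.33 FPKM at 24 months (log2 fold change -0.18 ± 0.45 (SE), unadjusted p = 0.698, adjusted p = 0.929). Atp2a2, the endoplasmic reticulum calcium pump gene in whose intron the study places it, was 94.8, 90.4, 81.9, 84 and 76.8 FPKM and then 73.7, 71.7, 73.4, 75 and 70.1 FPKM, without overlap (log2 fold change -0.23 ± 0.067 (SE), unadjusted p = 0.00733, adjusted p = 0.676), after 119 to 148.2 FPKM at 3 months (12 against 3 months, log2 fold change -0.61, adjusted p = 0.0432).

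**Figure D4:**
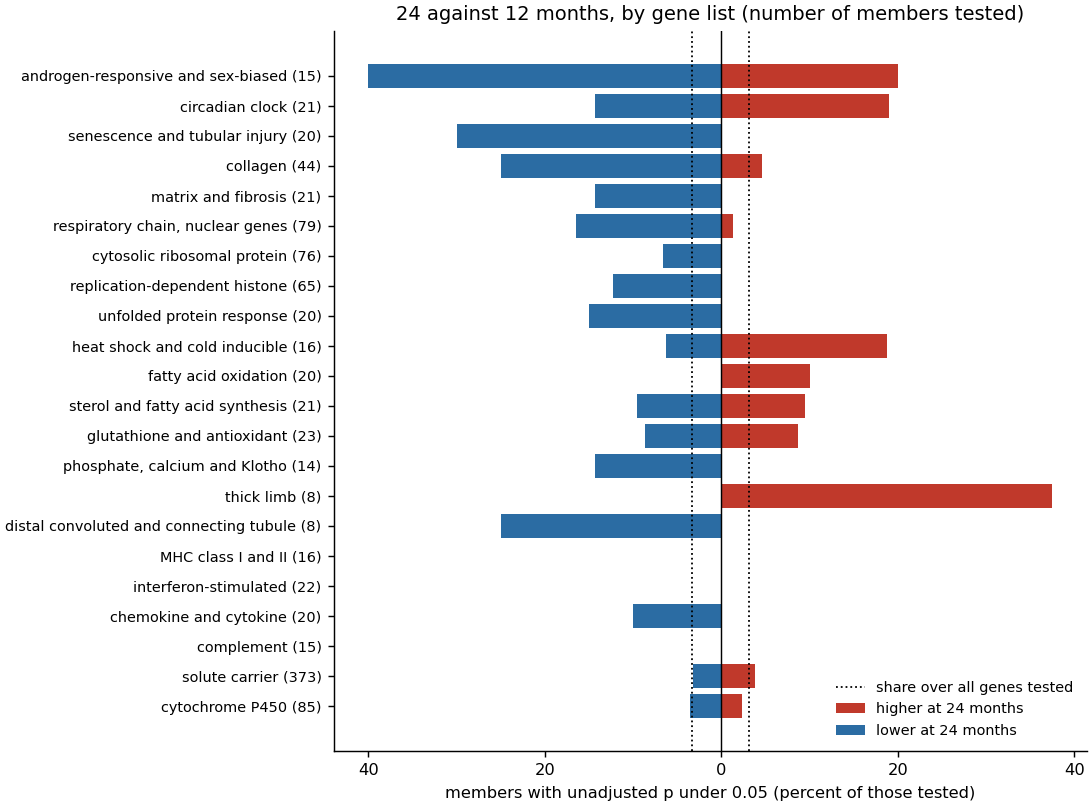
Share of each gene list with an unadjusted p under 0.05 (limma, 24 against 12 months), higher to the right in red and lower to the left in blue, with the number of members tested in brackets. Dotted lines mark the shares over all genes tested, 3.07% higher and 3.36% lower; the thick limb, androgen-responsive and clock lists reach farthest to the right and the androgen-responsive, injury, collagen and distal tubule lists farthest to the left.

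Circular RNAs gave more calls than genes. With edgeR's quasi-likelihood test on rounded counts, 37 of 11925 circular RNAs rose (0.31%) and 51 fell (0.428%) between 12 and 24 months, at a smallest adjusted p of 0.0203, and 17 (0.143%) and 8 (0.0671%) passed an unadjusted p under 0.05 with a change above 2-fold. The test gave 791 calls from 3 to 12 months (6.63% of 11923) and 1582 from 3 to 24 months (13.3% of 11924). The 88 circular RNAs came from 51 host genes, and 15 hosts with 2 or more calls held 52 of them, so calls were not independent. Of the 88, 79 had no overlap between the ages in CPM (counts scaled to the total circular count of a mouse), a separation that 4.02% of all 11925 tested showed, and 7 changed more than 2-fold. The 79 were chosen by small p, so nothing is read from their count.

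These calls rested on which mice entered the fit. edgeR called 0 circular RNAs without mouse 33 (1362 at an unadjusted p under 0.05) and 0 when the 3-month mice joined the fit (1530 unadjusted). Leaving out mouse 17, 19, 20 or 34 left 16, 18, 12 and 18 calls, leaving out mouse 18 or 31 left 55 and 44, and leaving out mouse 21 or 32 gave 390 and 239. DESeq2 called 418, which included 85 of the 88. With 1 circular RNA per host gene, 17 were called.

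The deposited circular counts were larger for longer circles. Among 12675 pairs of exonic circular RNAs of one host in which the shorter lay within the longer, the longer had the larger mean count in 12673 pairs (99.98%). What reads the counts hold is not given in the sources used here, and linear transcripts of the host share the exons of its circles. All 88 had a host gene with a tested value. The sign of the host's linear change was shared by 82 of the 88 (93.2%), against 7862 of 11922 circular RNAs with a tested host (65.9%). The 88 were chosen by small p, and circles of one host share its value, so nothing is read from the gap between these shares. Host fold changes are of log2(FPKM + 1), which understates those of low genes, so the sizes of circular and host changes are set side by side and not compared. How much of a circular difference came from linear reads was not tested.

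The joints of 7 called circular RNAs are printed because they are the sequence that sets each loop apart from its linear transcript. Each line gives the last 20 bases of the loop's 3′ exon followed by the first 20 bases of its 5′ exon, 5′ to 3′ on the coding strand, from GENCODE M21 transcripts of GRCm38, with the 5 bases on each side of the joint in capitals. The start and end of 84 of the 88 matched exon ends of the named transcript, and both sides of the 7 shown are coding:
Abca13 circRNA6997: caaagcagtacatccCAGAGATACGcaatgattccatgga
Pkhd1 circRNA6836: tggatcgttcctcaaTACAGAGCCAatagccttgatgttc
Cry1 circRNA9384: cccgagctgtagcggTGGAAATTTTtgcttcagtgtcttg
Rad54l2 circRNA9751: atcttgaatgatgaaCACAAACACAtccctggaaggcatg
Itgb6 circRNA10686: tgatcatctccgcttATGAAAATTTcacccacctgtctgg
Trpm6 circRNA5095: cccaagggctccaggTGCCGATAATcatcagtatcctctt
Kap circRNA6006: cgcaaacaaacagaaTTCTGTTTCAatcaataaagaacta

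Among the circular RNAs that rose, Abca13 and Pkhd1 led. Abca13 encodes a very large transporter of the ABC family, and circRNA6997 (chr11:9577151-9615807, plus strand, exons 52 to 56 of 62) was 56.4, 65.1, 56.4, 51.1 and 65.7 CPM at 12 months and 85.8, 78.5, 91.4, 90.3 and 89.9 at 24 months, without overlap (log2 fold change 0.52 ± 0.075 (SE), adjusted p = 0.0203). The 3-month mice spread from 37.4 to 98.4 CPM, and the log2 fold change of this circle from 3 to 24 months was 0.32 (edgeR, adjusted p = 0.296). The host gene had a log2 fold change of 0.15 ± 0.072 (SE, unadjusted p = 0.0609) in summed FPKM. Another 3 of the 10 leading circles, circRNA8830, circRNA3219 and circRNA5759, span much the same exons and had 0.52, 0.51 and 0.51. In all, 7 of 61 tested Abca13 circles were called, and all 61 had a positive log2 fold change.

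Pkhd1 encodes fibrocystin, the protein of the primary cilium that is lost in autosomal recessive polycystic kidney disease. Its circRNA6836 (chr1:20198018-20312210, minus strand, exons 49 to 60 of 67) was 148.2, 168.5, 164.3, 146.8 and 166 CPM at 12 months and 224.4, 211.8, 238.4, 226.1 and 198.5 at 24 months (log2 fold change 0.43 ± 0.069 (SE), adjusted p = 0.0203). The 3-month mice were at 125.7 to 173.1 CPM, and the log2 fold change of this circle from 3 to 24 months was 0.49 (edgeR, adjusted p = 0.00698). The host gene had 0.11 ± 0.073 (SE, unadjusted p = 0.175). In all, 13 of 110 tested Pkhd1 circles were called, between 0.39 and 0.45 on the log2 scale, and 59 of the 110 had a positive sign. The nested circRNA10720 and circRNA2137 had 0.45 and 0.44.

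The other leading circles that rose were low in count. Adgrb3 circRNA10234, from an adhesion receptor gene, was 3.31, 4.53, 4.65, 2.72 and 3.56 and then 6.54, 10.7, 9.18, 11.2 and 6.85 CPM (log2 fold change 1.19 ± 0.19 (SE), adjusted p = 0.0203), beside a host change of 0.31 ± 0.099 (SE, unadjusted p = 0.0106). The intronic ciRNA139 of Col27a1 was 1.68, 1.88, 2.43, 0.86 and 1.76 and then 5.36, 4.35, 5.43, 6.88 and 3.78 CPM (log2 fold change 1.504 ± 0.23 (SE), adjusted p = 0.0203), in the direction of its host (0.66 ± 0.20 (SE, unadjusted p = 0.00918)), and ciRNA135 of Cit had 1.18 ± 0.18 (SE), adjusted p = 0.0203 (host 0.27 ± 0.094 (SE, unadjusted p = 0.0165)). Cry1 circRNA9384 (chr10:85143016-85157194, minus strand, exons 2 to 10 of 13) was 6.4, 8.06, 6.78, 5.5 and 3.58 CPM at 12 months and 16.6, 12.1, 12.3, 23.1 and 9.68 at 24 months (log2 fold change 1.24 ± 0.24 (SE), adjusted p = 0.0354), beside 0.60 ± 0.16 (SE, unadjusted p = 0.00478) for the linear gene, which was 1.10 with a pseudocount of 0.1. It was named after its values were seen, as were the circles of Trpm6, Kap, Cyp4b1, Abcc4 and Ppm1h below. The reason was the place of their hosts among the gene lists or among the hosts with several calls. At 3 months the Cry1 circle spread from 5.36 to 32.5 CPM. Its log2 fold change from 3 to 24 months was -0.11 (edgeR, adjusted p = 0.888).

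Of the 10 leading circular RNAs that fell, 3 came from Itgb6. Itgb6 encodes an integrin subunit that activates TGF-beta in epithelia. Its circRNA10686 (chr2:60634580-60669306, minus strand, exons 3 to 8 of 15) was 310.4, 332.7, 338.7, 421.1 and 391.6 CPM at 12 months and 240.6, 220.4, 199.7, 133.2 and 219.6 at 24 months, without overlap (log2 fold change -0.87 ± 0.14 (SE), adjusted p = 0.0203). The 3-month mice spread from 222.7 to 458.9 CPM, and the log2 fold change of this circle from 3 to 24 months was -0.92 (edgeR, adjusted p = 0.00993). The linear gene had -0.74 ± 0.14 (SE, unadjusted p = 0.000316). The circles circRNA6133 and circRNA6803 of the same gene had -0.81 and -0.64, and 4 of 4 tested Itgb6 circles were negative.

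Rad54l2 circRNA9751 (chr9:106717186-106722914, minus strand, exons 3 to 8 of 22), from a gene for a chromatin remodelling helicase, was 43.5, 40.3, 38.3, 39.6 and 35.5 CPM at 12 months and 28.4, 27.5, 29.9, 27.3 and 29.6 at 24 months (log2 fold change -0.51 ± 0.075 (SE), adjusted p = 0.0203; host -0.21 ± 0.12 (SE, unadjusted p = 0.119)). Nckap5 circRNA6858 was 14.2 to 17.9 CPM at 12 months and 9.91 to 11.6 CPM at 24 months (-0.63 ± 0.094 (SE), adjusted p = 0.0203; host -0.12 ± 0.18 (SE, unadjusted p = 0.516)). Osbpl8 circRNA3987 was 54.4 to 64 CPM at 12 months and 42.9 to 46.1 CPM at 24 months (-0.47 ± 0.072 (SE), adjusted p = 0.0203; host -0.31 ± 0.092 (SE, unadjusted p = 0.00769)). None of these ranges overlapped between 12 and 24 months. From 3 to 24 months the Rad54l2, Nckap5 and Osbpl8 circles had log2 fold changes of -0.39, -0.59 and -0.80 (edgeR, adjusted p = 0.038, 0.0171 and 0.00268).

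Atxn1 circRNA7479 was 247 to 314.7 CPM at 12 months and 158 to 211.2 CPM at 24 months (-0.61 ± 0.095 (SE), adjusted p = 0.0203), and circRNA46, which it contains, had -0.59, beside a host change of -0.26 ± 0.24 (SE, unadjusted p = 0.296). Tead1 circRNA5192, from a gene for a transcription factor of the Hippo pathway, had -0.77 ± 0.12 (SE), adjusted p = 0.0203 (host -0.12 ± 0.09 (SE, unadjusted p = 0.196)), and Zc3h12c circRNA9729, from a gene of a zinc finger ribonuclease family, had -0.61 ± 0.10 (SE), adjusted p = 0.0203 (host -0.31 ± 0.27 (SE, unadjusted p = 0.275)). All leading circles named by rule lay without overlap between 12 and 24 months.

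Circles of 3 hosts from the gene lists fell as well. Trpm6 circRNA5095 (chr19:18819038-18856264, plus strand, exons 18 to 27 of 39) was 44.2, 37.5, 37.4, 33.7 and 38.8 CPM at 12 months and 29.1, 25.1, 24, 25.2 and 31.5 at 24 months (log2 fold change -0.55 ± 0.094 (SE), adjusted p = 0.0203), beside -0.30 ± 0.053 (SE, unadjusted p = 0.000221) for the linear gene, and 7 of 7 tested Trpm6 circles were negative. Kap circRNA6006 (chr6:133851918-133852094, minus strand, exon 2 of 4) was 8062, 7240, 8227, 7456 and 9779 and then 6776, 5383, 4894, 5074 and 5291 CPM (-0.61 ± 0.11 (SE), adjusted p = 0.0203). The 3-month mice spread from 13.5 to 62.5 CPM for this Trpm6 circle and from 3485 to 7350 CPM for this Kap circle. From 3 to 24 months their log2 fold changes were -0.37 and -0.046 (edgeR, adjusted p = 0.512 and 0.915). Both Kap circles together took 1.1% to 2.08% of all circular counts of a mouse, in a gene that was among the most abundant linear transcripts. The intronic ciRNA400 of Cyp4b1 was 19.6 to 41.9 CPM at 12 months and 8.15 to 17.8 CPM at 24 months (-1.31 ± 0.24 (SE), adjusted p = 0.0248). Abcc4, a gene for an efflux transporter of the ABC family, had 2 of 15 tested circles called, both higher, at 0.66 and 0.72, beside a host log2 fold change of 0.62 (unadjusted p = 0.00121). Ppm1h, which encodes a protein phosphatase, had 4 called circles between -0.64 and -0.53, with a host change of -0.46 ± 0.10 (SE, unadjusted p = 0.00131).

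**Figure D5:**
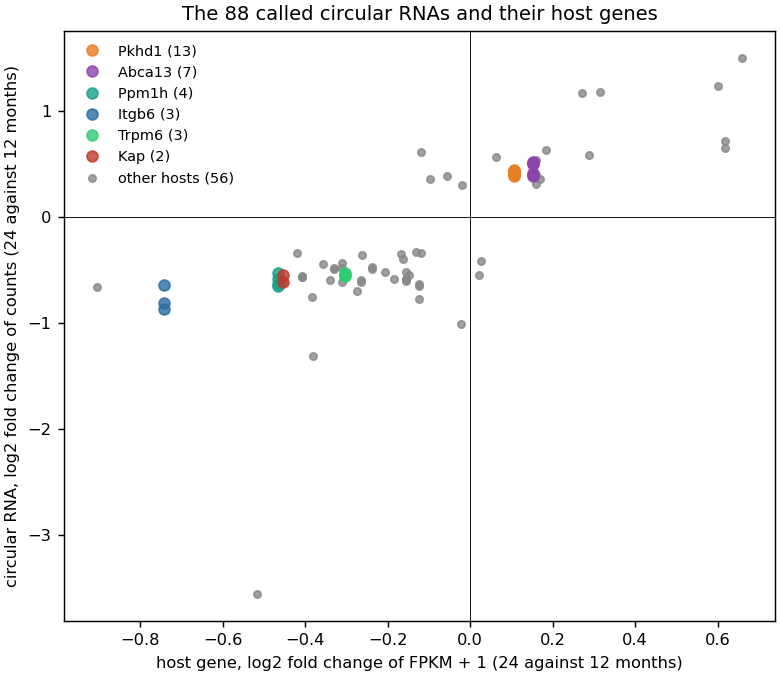
Log2 fold change (24 against 12 months) of each of the 88 called circular RNAs (edgeR on circular counts, vertical) against that of its host gene (limma on summed FPKM + 1, horizontal), 1 point per circular RNA, with 6 hosts coloured and the number of their circles in brackets. Most points lie where both changes have the same sign, the scales of the axes differ, and circles of one host stack on one vertical line.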

How the data were processed

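RNA-seq of whole kidneys from 15 male mice was used, 5 each at 3, 12 and 24 months, grouped by the labelled age. Sample titles begin with the youngest age for all mice, so titles set no group. The members and gene lists were chosen with earlier results of these data known. The submitters' notes name TopHat2 and StringTie (versions not given in the sources used here), whereas the study's methods name Bowtie2 and Hisat2 as the aligners, with StringTie for assembly, on mouse build GRCm38. The labels state ribosomal RNA depletion, whereas the study's methods describe oligo(dT) selection, which could change what non-polyadenylated RNA the libraries hold.

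The authors deposited FPKM and coverage per assembled transcript, and per circular RNA estimated counts that need not be whole. The median ratio of deposited coverage (signal) to FPKM, over transcripts with both above 1, gave the aligned bases per mouse. FPKM was summed over transcripts of one gene name with class code =, c, j or o, and log2(FPKM + 1) was tested with limma 3.58.1 (trend) for genes above 0 in at least 1 of the 10 mice. FPKM carries no read counts, so no count test was run on genes. Fold changes on this scale understate those of low genes. Circular counts were rounded and tested with edgeR 4.0.16 (TMM, quasi-likelihood) for circular RNAs above 0 in at least 5 mice, with DESeq2 1.42.0 as an alternative, in R 4.3.3. Standard errors of circular RNAs were derived, as the absolute log2 fold change that edgeR reports divided by the square root of its F statistic. P-values were adjusted by Benjamini-Hochberg over all features tested, and a call was an adjusted p under 0.05. Single values were compared by exact permutation over 252 assignments, two-sided, whose smallest p is 0.00794. The scripts were tested on simulated data.

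Named genes were those past adjustment, up to 12 per direction at an unadjusted p under 0.05 and a change above 2-fold, and up to 4 per list with the smallest p. Named circular RNAs were up to 10 per direction among those called. Chosen after values were seen were the further members of the lists given by name, the test of Kap alone, the fits on transcripts with 2 or more exons and on 1 circular RNA per host, and the circular RNAs so described. A few members of the lists are counted but not reported by name here. The number of mice limits the precision: the median standard error of a log2 fold change was 0.144 among 13600 genes with a mean of at least 1 FPKM.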

Additional observations from a re-analysis of the deposited data

Results flagged for a closer look

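In 18 of 206 groups of 5 mice examined, for the genes and circular RNAs described, 1 mouse stood apart from the other 4 by more than 0.71 of the group's range, a limit that chance passes in about 1 of 20 groups. Values are FPKM unless given otherwise. Among the 24-month mice, mouse 35 was the highest for Nipa1 (1.03), Npas2 (1.08) and Gm20712 (2.103) and the lowest for Gm42547 (0). Mouse 31 was the lowest for Gm44986 (0), the highest for Ndufa8 (59.6) and apart for Osbpl8 circRNA3987 (46.1 CPM). Mouse 33 was the highest for Uqcr10 (55.5), and mouse 32 stood apart for Srebf2 (14.2) and Slc12a3 (226). Among the 12-month mice, mouse 17 was the lowest for Nipa1 (0.779) and stood apart for Creld2 (9.14), and mouse 18 stood apart for Slc9a3r1 (71.5). Mouse 19 stood apart for Gm38365 (2.27), mouse 20 for Gm20489 (0.102) and Atxn1 circRNA7479 (315 CPM), and mouse 21 was the highest for Hnrnpa0 (9.06) and the lowest for Cry1 (0.378).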

How the results depend on the processing

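No paired analysis was possible because no mouse number is shared between the ages. No setting moved the median log2 fold change of all genes by more than 0.1. Genes that rose past adjustment numbered 0, against 1 with a pseudocount of 0.1 and 0 to 4 when 1 mouse was left out. Genes that fell numbered 1, against 2 with a pseudocount of 0.1, 0 with a mean of at least 1 FPKM, 0 with all 15 mice, 0 with transcripts of 2 or more exons, and 1 to 3 when 1 mouse was left out. At an unadjusted p under 0.05 with a change above 2-fold, the 21 higher genes became 168 with a pseudocount of 0.1, 9 with transcripts of 2 or more exons and 27 to 36 with 1 mouse left out, and the 34 lower genes became 155 with a pseudocount of 0.1, 53 with class code = alone and 29 to 47 with 1 mouse left out. The unadjusted counts of 990 and 1085 became 443 and 655 with a mean of at least 1 FPKM and 1551 and 691 at the same FPKM total. The 37 and 51 circular RNAs called became 182 and 236 by DESeq2, 0 and 0 with all 15 mice, 7 and 10 with 1 per host, and 0 to 141 and 0 to 249 with 1 mouse left out. At an unadjusted p under 0.05 the 955 and 1059 circular RNAs became 330 and 375 with 1 per host and 641 to 1233 and 712 to 1374 with 1 mouse left out. Cat was reversed with class code = alone (-0.0074). The cause was not tested in any of these. Of the named genes, all but Sdhaf1 were uncalled, so their staying so says nothing about stability. Leaving out 1 mouse gave 8 of them an adjusted p under 0.05, and Sdhaf1 lost it with all 15 mice. Of 326 values for 20 circular RNAs, 68 lost the call with the same sign.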
